A study of Homo sapiens with 9 samples.

Results

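HCC827 is a human lung adenocarcinoma line that depends on an EGFR carrying an activating deletion. Its cells stably carried either hairpin G1, a short hairpin RNA against CBX5, or a non-silencing hairpin called NS, here the control, and were grown in serum-containing DMEM with no drug in the labels. The comparison used 3 libraries of G1 and 3 of control, 6 of the 9 libraries of the series, and the other 3 carried a second CBX5 hairpin, G7. Of 60675 genes in the table, 13264 had enough counts to be tested. CBX5 encodes HP1-alpha, a chromodomain protein that binds histone H3 methylated on lysine 9, forms dimers and recruits silencing factors to heterochromatin. It has 2 paralogs, HP1-beta (CBX1) and HP1-gamma (CBX3), and it is also found at the nuclear envelope through the lamin B receptor. A hairpin lowers the messenger and leaves some protein, and each hairpin can have targets of its own.

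The 6 libraries held between 12701561 and 19339887 counted reads, of which 13.4% to 17.7% fell on mitochondrial genes. On the first principal component of all 9 libraries, which carried 62.0% of the variance, the G1 libraries lay between 33.7 and 34.4, the control libraries between -26.8 and -26.3 and the G7 libraries between -8.48 and -6.84. Levels are given as CPM (counts scaled to a common library total) after TMM scaling, except for sums of markers, with the libraries in the order 1, 2, 3. Each adjusted p-value comes from the quasi-likelihood test of edgeR, corrected over all genes tested by the Benjamini-Hochberg method, and a gene is said to have risen or fallen only where this p was under 0.05. The labels do not say whether the 3 libraries of a hairpin came from separate transductions, so any p-value here reflects only how these samples vary, and a hairpin cannot be told apart from the line that carries it. In bulk RNA, fewer cells of a kind and less RNA per cell cannot be told apart either.

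The epithelial identity of the line was visible in the adenocarcinoma markers, of which 9 of 11 were tested. Their summed level was 10905 to 12279 CPM in the control and 13946 to 14460 CPM in the G1 libraries. Of the 9, 6 were higher and 3 lower with G1, the latter being MUC1, EGFR and SFTPB. SFTPB was near the floor, at 36 reads over the control and 6 over the G1 libraries. Sums of markers use plain library totals, without TMM scaling. NKX2-1 and NAPSA, which mark the alveolar lineage, were listed at 0 in every library. A 0 in this table, here and for the other markers, cannot be read as an absent messenger, for a reason given below. Markers of other cell types had far lower sums than the adenocarcinoma markers, and these sums were lower with G1. PECAM1, an endothelial marker, was not low, at 3271 reads over the control and 2865 over the G1 libraries. It had the most reads of its list, where COL1A1 had 642 and 757 and CDH5 627 and 901. The 13 immune markers summed to 11.7 to 12.7 CPM in the control and 5.69 to 6.82 CPM in the G1 libraries, with MS4A1, CD68 and FCGR3A at 0. The 13 fibroblast and endothelial markers summed to 103 to 109 CPM against 84.2 to 87.7 CPM, with LUM, THY1 and ACTA2 at 0, where PECAM1 was lower at -0.40, CDH5 was higher at 0.32 and the third tested member, COL1A1, did not pass at 0.04. The 10 neuroendocrine markers summed to 4.23 to 4.41 CPM against 2.64 to 3.21 CPM, with NEUROD1, INSM1 and CALCA at 0. The part of these genes in the results was not tested.

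CBX5 stood at 370, 377 and 361 CPM in the control libraries and at 142, 142 and 143 CPM in the G1 libraries. The groups were far apart and each was tight. The log2 fold change was -1.38 ± 0.04 (SE, n = 3 against 3, edgeR adjusted p = 4.0e-15). The G7 libraries averaged 203 CPM, and G1 was lower than G7 by a log2 difference of -0.52 ± 0.04 (SE). Both paralogs rose with G1, CBX1 from 83.4 ± 6.99 to 117 ± 2.78 CPM and CBX3 from 186 ± 12.5 to 272 ± 18.03 CPM (SD, n = 3).

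The change was broad. Of the 13264 genes, 7837 passed the test (59.1%), 4031 higher (30.4%) and 3806 lower (28.7%) with G1. Most differences were small, and the large ones were mainly falls, since 699 genes fell by over 2-fold (5.27%) and 291 rose by over 2-fold (2.19%). That excess depended on class and level. Protein-coding genes gave 446 such falls and 271 such rises. Those at 1 to 10 CPM in the control gave 245 falls and 86 rises. At 10 to 100 CPM there were 86 falls and 111 rises, and at 100 to 1000 CPM 21 and 19. A stricter test of a change beyond 1.5-fold passed 1217 genes (9.18%). The libraries of the groups did not overlap for 8497 genes (64.1%). With upper quartile scaling in place of TMM the split was 3066 higher (23.1%) and 4815 lower (36.3%), because that scaling moved the median of all genes from -0.01 to -0.10 on the log2 scale. Every count of a gene list below is therefore to be read against shares of 30.4% higher and 28.7% lower, and against a median over all genes of -0.01. These shares vary with level, and the lists were not matched for level. Protein-coding genes averaging over 30 CPM across the 9 libraries were 45.6% higher and 24.8% lower, with a median of 0.095. Those at 1 to 3 CPM were 9.42% higher and 32.8% lower. The lists were written from knowledge of the pathways with earlier results of these data known.

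**Figure D1:**
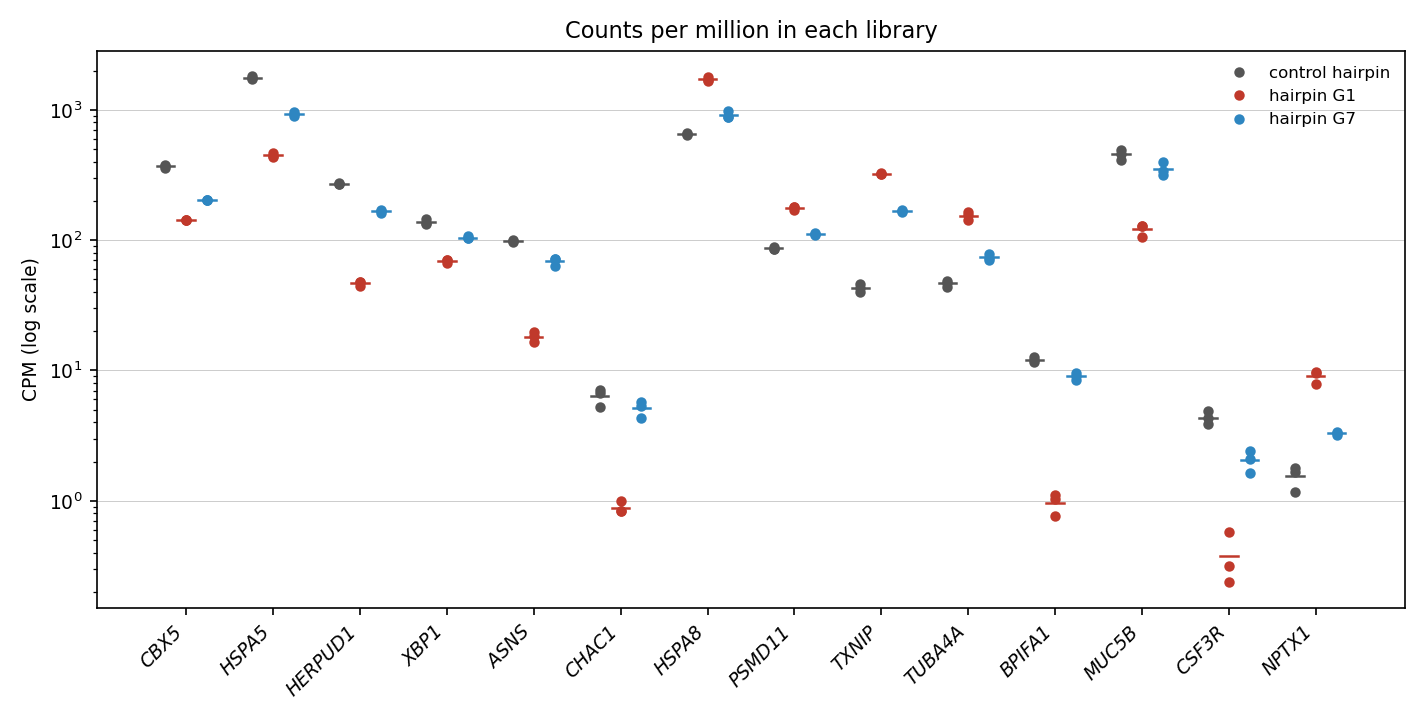
CPM on a log axis for 14 genes in each of the 9 libraries (points) with the group mean (bars), for the control hairpin (grey), hairpin G1 (red) and hairpin G7 (blue). HSPA5 lay between 1729 and 1815 CPM in the control and between 432 and 470 CPM in the G1 libraries, while HSPA8 lay between 646 and 669 CPM and between 1667 and 1798 CPM.

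Genes of protein folding in the endoplasmic reticulum (ER) were mostly lower with G1. The ER folds and glycosylates secreted and membrane proteins. When unfolded protein builds up, the sensors IRE1 (ERN1), PERK and ATF6 start a response that makes more chaperones, and the transcription factors XBP1 and ATF6 act on promoters that carry the ER stress element. A related arm, through PERK or other kinases, raises translation of ATF4, which turns on genes of amino acid supply and, through DDIT3 (CHOP) and CHAC1, of prolonged stress. Below are promoter stretches from RefSeq (GRCh38.p14), shown as examples of these elements in genes whose values follow. Not every gene whose values follow was found with an element. XBP1 and ASNS each have 2 starts listed, and 1 of them held the element. Capitals mark the ER stress element in HSPA5 (chr9:125241344-125241493, minus strand) and XBP1 (chr22:28800570-28800719, minus strand), its second form in HERPUD1 (chr16:56931992-56932141, plus strand), and the amino acid response core in ASNS (chr7:97872409-97872558, minus strand) and CHAC1 (chr15:40953221-40953370, plus strand, where the core stands on the opposite strand).
HSPA5: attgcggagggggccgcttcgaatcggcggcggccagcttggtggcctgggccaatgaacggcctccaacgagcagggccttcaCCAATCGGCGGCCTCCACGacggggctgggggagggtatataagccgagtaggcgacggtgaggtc
XBP1: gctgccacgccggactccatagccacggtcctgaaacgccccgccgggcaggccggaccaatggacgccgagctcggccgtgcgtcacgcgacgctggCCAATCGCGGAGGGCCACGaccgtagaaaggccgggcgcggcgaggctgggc
HERPUD1: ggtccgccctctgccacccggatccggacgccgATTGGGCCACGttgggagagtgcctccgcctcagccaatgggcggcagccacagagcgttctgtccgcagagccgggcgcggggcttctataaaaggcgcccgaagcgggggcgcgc
ASNS: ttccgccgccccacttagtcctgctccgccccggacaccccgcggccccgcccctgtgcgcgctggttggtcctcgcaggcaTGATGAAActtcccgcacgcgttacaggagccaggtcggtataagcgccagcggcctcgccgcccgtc
CHAC1: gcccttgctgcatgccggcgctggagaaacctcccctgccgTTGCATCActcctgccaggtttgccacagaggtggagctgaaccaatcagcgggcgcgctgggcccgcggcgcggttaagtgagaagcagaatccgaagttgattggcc

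HSPA5, which encodes the main ER chaperone BiP, read 1815, 1754 and 1729 CPM in the control and 446, 470 and 432 CPM with G1. No library of one group came near the other. The log2 fold change was -1.97 ± 0.05 (SE, edgeR adjusted p = 6.5e-16). Of 19 tested ER chaperones and folding enzymes, 17 fell and 1 rose, with a median of -0.88, and 7 fell by over 2-fold. DNAJB9, a BiP cofactor, fell from 39.0 ± 1.53 to 10.1 ± 1.24 CPM, and MANF, a secreted ER stress protein, from 102 ± 4.15 to 31.5 ± 1.36 CPM (SD, n = 3). ERO1B, an oxidase that drives disulfide formation, fell from 24.2 ± 2.004 to 5.78 ± 0.135 CPM. Its paralog ERO1A, the 1 gene of the list that rose, had a log2 fold change of 0.27 ± 0.04 (SE) and was named after its value was seen. HSP90B1, the ER member of the HSP90 family, fell by 0.65 and the disulfide isomerase PDIA4 by 0.88 on the log2 scale.

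Genes that remove misfolded ER proteins fell too, in 10 of 12 tested members with a median of -0.36. HERPUD1, a scaffold of the degradation complex, read 274, 268 and 269 CPM in the control and 47.6, 47.5 and 44.5 CPM with G1. That fall, a log2 fold change of -2.54 ± 0.05 (SE, edgeR adjusted p = 5.2e-18), was the largest of its list. SEL1L and the ubiquitin ligase SYVN1 both fell by 0.89, and the channel protein DERL2 by 0.77 on the log2 scale. VCP, the ATPase that pulls proteins out of the ER and also works in the cytosol, was the 1 member that rose, by 0.50 ± 0.05 (SE). The 37 tested genes of the translocon, N-glycosylation and COPII vesicles moved little, with 20 lower, 5 higher and a median of -0.12. Among them SEC24D, a COPII coat protein, fell by 0.73, SEC61A1 of the translocon by 0.29 and the glycosylation subunit OSTC by 0.54, while RPN2 rose by 0.28.

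The sensors and transcription factors of the stress responses fell in 13 of 15 tested members, with a median of -0.66 and 2 rises. XBP1 read 145, 136 and 133 CPM in the control and 70.6, 71.0 and 66.5 CPM with G1. ERN1 fell from 45.8 ± 0.297 to 26.4 ± 0.750 CPM, and ATF6 and ATF4 fell by 0.40 and 0.55 on the log2 scale. DDIT3 was low in all libraries, at 2.87, 4.05 and 3.27 CPM in the control and 0.237, 0.369 and 0.578 CPM with G1, a log2 fold change of -3.11 ± 0.28 (SE). Of its exon bases, 27.2% overlap MARS on the opposite strand. PPP1R15A, which restores translation after stress, fell from 77.8 ± 2.80 to 38.4 ± 0.595 CPM.

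The list of amino acid synthesis and transport also held genes with other roles, such as CHAC1. It followed the same direction, with 23 of 26 tested genes lower, 2 higher and a median of -0.87. ASNS, asparagine synthetase, read 97.9, 96.2 and 100.3 CPM in the control and 19.6, 18.4 and 16.4 CPM with G1, and the log2 fold change was -2.43 ± 0.07 (SE, edgeR adjusted p = 4.0e-15). Of the exon bases of ASNS, 44.6% overlap another gene model, AC079781.5, on the same strand. CHAC1, which degrades glutathione, read 5.29, 6.73 and 7.08 CPM against 0.830, 1.001 and 0.834 CPM, and NUPR1, a stress-induced nuclear protein, 7.25, 7.69 and 8.57 CPM against 1.54, 0.843 and 0.963 CPM. The groups did not overlap for any of these. The serine synthesis enzyme PSAT1 fell from 252 ± 4.59 to 111 ± 3.66 CPM, the secreted STC2 from 272 ± 8.40 to 140 ± 2.75 CPM and the glycine transporter SLC6A9 from 48.4 ± 3.36 to 24.4 ± 0.796 CPM. SLC7A11, the cystine transporter, did not pass, at 85.0 ± 0.230 against 83.7 ± 1.28 CPM. The 20 cytosolic tRNA synthetases split, 9 lower and 8 higher with a median of -0.04. AARS, WARS, SARS and GARS fell by 0.81, 0.95, 0.68 and 0.48 on the log2 scale, while FARSB rose by 0.54 and KARS by 0.44.

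Promoters were searched over the 250 bases before each start, on both strands, for 10051 tested genes that a RefSeq promoter could be matched to. Of 35116 promoters, 0.074% held the ER stress element, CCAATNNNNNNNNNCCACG. All 14 tested genes with it were lower with G1, with a median of -0.65, beside a median of 0.01 and 28.0% lower over the 10051 genes. They included HSPA5, XBP1, HSP90B1, ERO1B, CALR and CANX (calreticulin and calnexin, which fold glycoproteins) at -0.66 and -0.42, FICD at -1.47, an enzyme that modifies BiP, and CRELD2 at -1.16. Most of the 14 also stand in the ER lists above, so the element and the lists are not separate counts. Its second form, ATTGG and CCACG with 1 base of any kind between them, was in 0.051% of promoters, and the 14 tested genes with it split, 7 higher and 6 lower, although HERPUD1 and HYOU1 (-1.26) were among the latter. The amino acid response core, TGATGNAA, was in 3.14% of promoters, and of its 238 tested genes 71 were higher and 78 lower, close to the background. A match is a run of letters and does not show that a factor binds there.

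**Figure D2:**
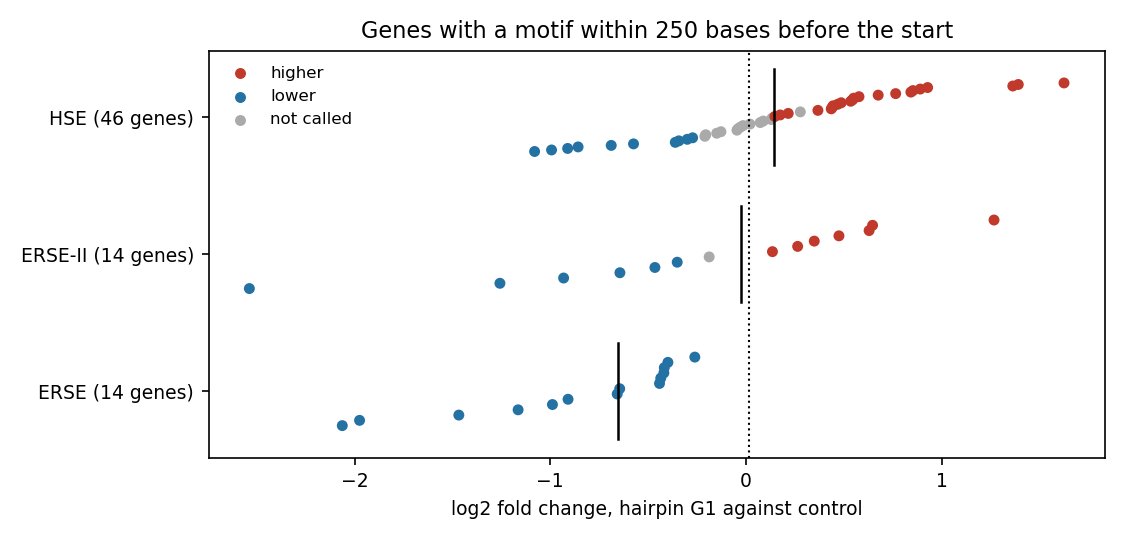
Log2 fold change of G1 against control for tested genes whose 250 bases before the start hold the ER stress element (ERSE, 14 genes), its second form (ERSE-II, 14 genes) or the heat shock element (HSE, 46 genes), 1 point a gene, coloured by call, with the median of each group (bar) and of all genes with a promoter (dotted line). All 14 ERSE genes lay below 0, and 22 of the 46 HSE genes were higher against 10 lower. Over all genes with a promoter, 32.9% were higher and 28.0% lower.

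Cytosolic and mitochondrial chaperones moved in the other direction from those of the ER. Of 30 tested, 29 rose and none fell, with a median of 0.62. Cytosolic chaperones are governed by the heat shock factor HSF1, which binds inverted repeats of GAA, and the stretches below from RefSeq (GRCh38.p14) carry such a repeat in capitals, on the opposite strand, for HSP90AA1 (chr14:102087045-102087194, minus strand) and HSPA8 (chr11:123062137-123062286, minus strand). HSP90AA1 has 2 starts listed, and 1 of them held the repeat.
HSP90AA1: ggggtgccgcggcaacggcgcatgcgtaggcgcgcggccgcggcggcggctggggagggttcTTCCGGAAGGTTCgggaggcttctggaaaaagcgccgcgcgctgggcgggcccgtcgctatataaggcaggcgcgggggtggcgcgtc
HSPA8: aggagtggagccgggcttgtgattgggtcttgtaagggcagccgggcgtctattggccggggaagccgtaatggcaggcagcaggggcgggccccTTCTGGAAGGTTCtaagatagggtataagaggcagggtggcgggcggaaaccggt
HSPA8, the constitutive HSC70, read 646, 669 and 652 CPM in the control and 1693, 1667 and 1798 CPM with G1, a log2 fold change of 1.39 ± 0.05 (SE, edgeR adjusted p = 1.2e-13). HSP90AA1 rose from 2564 ± 139 to 6597 ± 120 CPM and its activator AHSA1 from 159 ± 3.97 to 295 ± 7.68 CPM. The chaperonin that folds actin and tubulin rose with them, TCP1 by 0.83, CCT5 by 0.91 and CCT7 by 0.76 on the log2 scale. Of the exon bases of CCT5, 30.1% overlap AC012640.4 on the opposite strand. The heat shock element, GAANNTTCNNGAA, was in 0.441% of promoters. Of 46 tested genes with it, 22 were higher (47.8%) and 10 lower (21.7%), with a median of 0.14. Over the 10051 genes with a promoter, 32.9% were higher and 28.0% lower, with a median of 0.01. The groups were not matched for level.

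All 26 tested proteasome subunits rose, with a median of 0.68 and 2 rises of over 2-fold, beside 30.4% of all genes. The proteasome degrades proteins tagged with ubiquitin, including those drawn out of the ER. PSMD11, of the regulatory lid, read 89.2, 85.2 and 86.3 CPM in the control and 178, 170 and 179 CPM with G1. PSMD1 of the base rose from 147 ± 9.75 to 309 ± 3.23 CPM, the ATPase PSMC3 from 109 ± 1.71 to 200 ± 3.08 CPM, and the catalytic subunit PSMB5 from 53.3 ± 5.01 to 73.4 ± 6.80 CPM. The list has 31 members, and the 5 that were not tested were listed at 0 in every library. Over all the lists, 237 of 2066 genes were listed at 0 in every library, among them TUBA1B, PSMA1 and SRSF2, which every cell uses, so a 0 in this table cannot be read as an absent messenger.

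**Figure D3:**
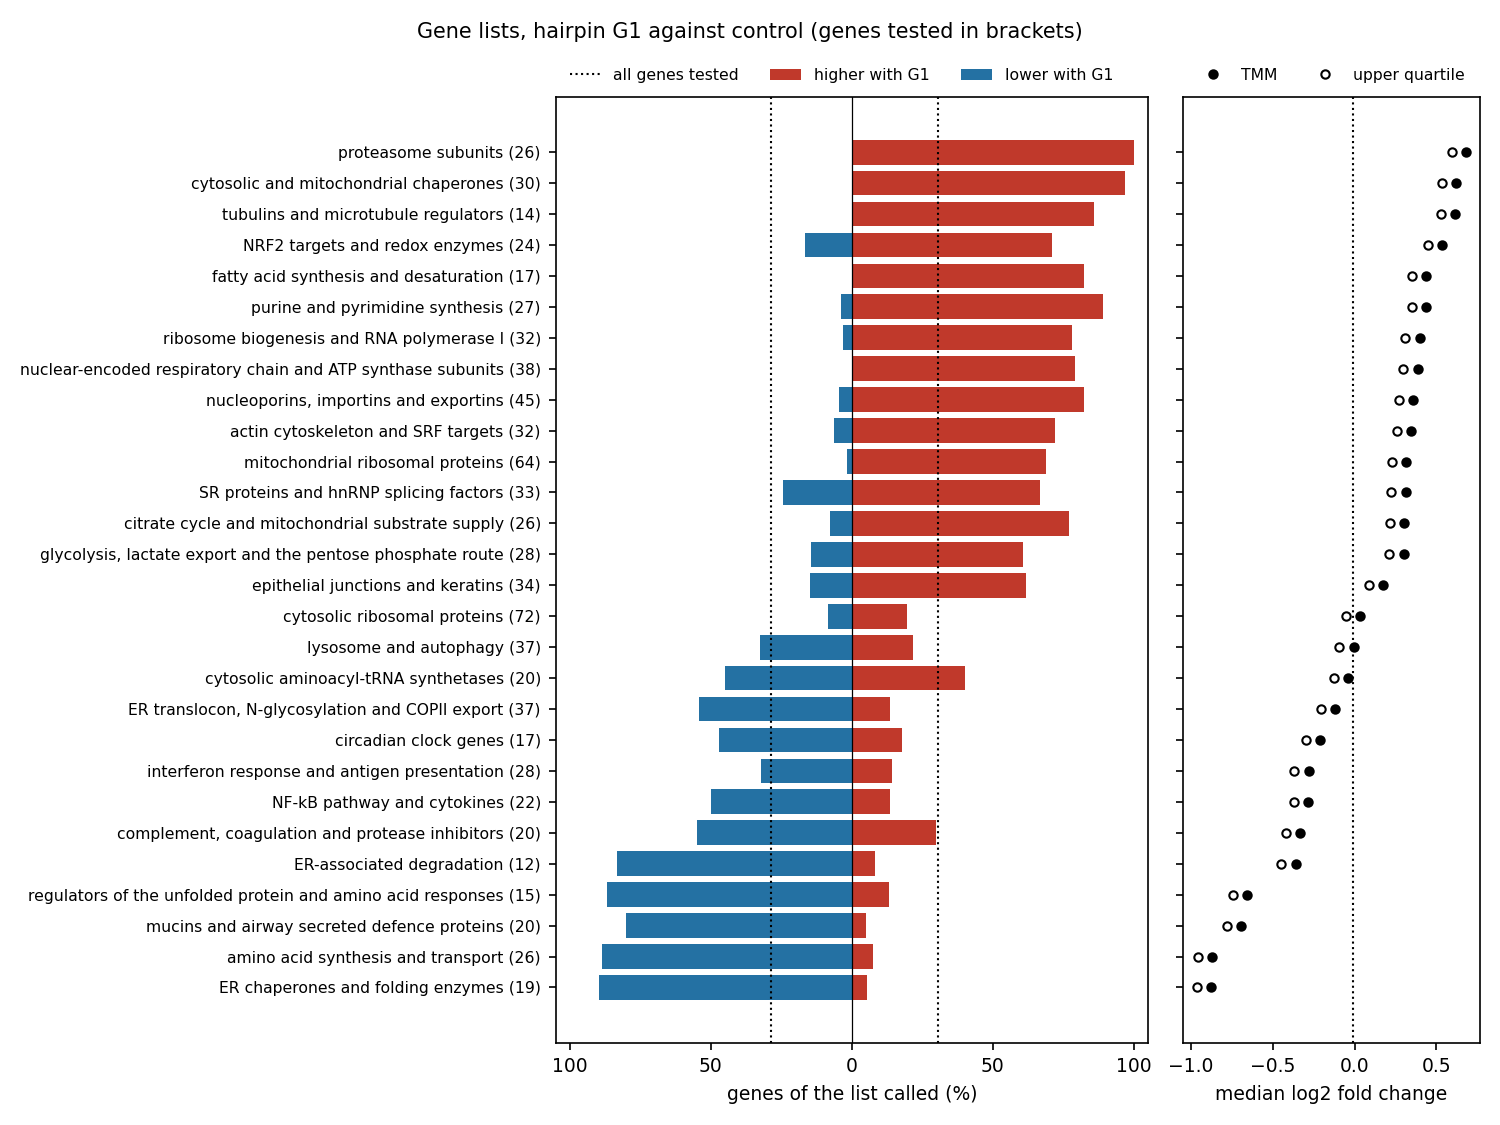
Left, percent of tested genes of 28 lists that were higher (red) or lower (blue) with G1, with the shares over all genes tested as dotted lines. Right, the median log2 fold change of each list under TMM (filled) and upper quartile scaling (open). Proteasome subunits (26 of 26 higher) stand at the top and ER chaperones (17 of 19 lower) at the bottom.

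TXNIP had the largest rise among genes named by size. It encodes a protein that limits glucose uptake and binds thioredoxin, and with its paralog ARRDC4 it is a known target of the glucose-sensing factors MondoA and ChREBP. TXNIP read 42.8, 45.8 and 40.0 CPM in the control and 324, 327 and 320 CPM with G1, a log2 fold change of 2.92 ± 0.05 (SE, edgeR adjusted p = 4.6e-18). ARRDC4 read 3.40, 3.64 and 3.09 CPM against 15.3, 13.9 and 14.2 CPM. The 8 genes of this list gave 3 rises and 1 fall.

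Glycolysis, lactate export and the pentose phosphate route had 17 of 28 tested genes higher and 4 lower, with a median of 0.30. LDHA, which makes lactate, rose from 1235 ± 40.4 to 2948 ± 104 CPM, PKM from 1059 ± 27.9 to 1990 ± 27.3 CPM and TPI1 from 430 ± 5.62 to 878 ± 8.19 CPM. HK2, the hexokinase at the start of glycolysis, fell from 103 ± 0.881 to 72.9 ± 2.08 CPM. The hypoxia list did not move together, with 6 of 17 higher and 3 lower, or 6 and 6 with upper quartile scaling. VEGFA, an angiogenic factor that is a target of both hypoxia and ATF4, fell from 178 ± 7.10 to 94.0 ± 3.55 CPM. CA9 rose from 1.43 ± 0.0646 to 2.87 ± 0.692 CPM, with 38.5% of its exon bases overlapping ARHGEF39.

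Fatty acid synthesis and desaturation had 14 of 17 tested genes higher and none lower, with a median of 0.44. FADS2, a desaturase, read 22.5, 27.9 and 25.3 CPM in the control and 67.5, 63.9 and 69.3 CPM with G1. SCD, the other main desaturase, rose from 1537 ± 14.9 to 3122 ± 31.8 CPM, FASN from 551 ± 47.5 to 1121 ± 66.9 CPM, ELOVL6 from 44.1 ± 2.58 to 98.6 ± 3.62 CPM, and LPIN1 from 34.5 ± 2.08 to 82.9 ± 1.99 CPM. SREBF1, which encodes the factor that drives these genes, stood at 160 ± 8.59 against 162 ± 7.30 CPM and did not pass. Fatty acid oxidation and peroxisomes gave 9 higher and 5 lower of 24, with CAT up by 0.44 and ACADM lower by a log2 fold change of -0.23. Phospholipid and sphingolipid genes gave 8 higher and 6 lower of 26 (6 and 9 with upper quartile scaling), led by SPHK1, which makes sphingosine 1-phosphate, at 3.32 ± 0.304 against 7.46 ± 0.367 CPM, and LPCAT1 at 135 ± 0.691 against 238 ± 5.90 CPM.

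Purine and pyrimidine synthesis had 24 of 27 tested genes higher and 1 lower, with a median of 0.44. RRM2, a subunit of ribonucleotide reductase, read 82.1, 87.0 and 80.7 CPM in the control and 245, 246 and 256 CPM with G1. Of its exon bases, 20.2% overlap another gene model, AC007240.1, on the same strand. CTPS1 rose from 36.6 ± 2.08 to 74.3 ± 4.03 CPM, PAICS from 179 ± 6.30 to 308 ± 10.2 CPM and CAD from 95.2 ± 3.41 to 133 ± 2.03 CPM. TYMS rose by 1.16, with 39.1% of its exon bases overlapping ENOSF1 on the opposite strand.

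Nuclear genes of mitochondria rose while mitochondrially encoded genes passed only when no filter on low counts was set. Of 38 tested respiratory chain and ATP synthase subunits, 30 rose and none fell, with a median of 0.39. CYCS, cytochrome c, rose from 80.5 ± 4.64 to 168 ± 12.1 CPM, UQCRFS1 of complex III from 56.0 ± 0.390 to 91.9 ± 2.45 CPM and ATP5F1A of the ATP synthase from 293 ± 16.1 to 428 ± 27.5 CPM. The citrate cycle and its supply gave 20 of 26 higher and 2 lower, with FH, fumarase, up by 0.86 and CS, citrate synthase, by 0.35, while cytosolic IDH1 fell from 921 ± 28.1 to 659 ± 2.32 CPM. Mitochondrial ribosomal proteins gave 44 of 64 higher and 1 lower, with a median of 0.31. None of the 13 protein genes of the mitochondrial genome passed edgeR's test, 0 had an unadjusted p under 0.05, and DESeq2 called 0, but with no filter on low counts edgeR called 5 of them higher. MT-ND6, for example, stood at 2182 ± 275 against 2413 ± 381 CPM (0.15 on the log2 scale, and called higher at 0.17 with no filter), and this list's median was 0.02.

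Redox genes under the factor NRF2 gave 17 of 24 higher and 4 lower, with a median of 0.53. AKR1B10, an aldo-keto reductase, rose from 841 ± 24.7 to 1818 ± 30.8 CPM, GCLM, for glutathione synthesis, from 237 ± 14.6 to 446 ± 6.29 CPM, and NQO1 from 992 ± 49.8 to 1442 ± 71.0 CPM. NFE2L2, the gene of NRF2 itself, was slightly lower at -0.16 ± 0.04 (SE), and the export pump ABCC3 fell from 1061 ± 36.8 to 634 ± 27.8 CPM. Of 16 iron and metal genes, 8 rose and 1 fell, or 7 and 4 with upper quartile scaling. TFRC, the transferrin receptor, rose from 313 ± 12.2 to 582 ± 19.2 CPM and FTL, ferritin light chain, from 928 ± 53.02 to 1754 ± 66.4 CPM. CP, the ferroxidase ceruloplasmin, fell, reading 243, 258 and 229 CPM in the control and 54.5, 54.1 and 57.1 CPM with G1.

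RNA processing and nuclear transport genes were mostly higher. Of 33 SR and hnRNP splicing factors, 22 rose and 8 fell, with a median of 0.31. HNRNPAB rose from 63.8 ± 0.925 to 154 ± 2.63 CPM, HNRNPM from 179 ± 6.98 to 368 ± 8.49 CPM and PTBP1 from 318 ± 15.5 to 533 ± 15.5 CPM. Of 45 nucleoporins, importins and exportins, 37 rose and 2 fell, with a median of 0.36. The importin KPNA2 read 118, 111 and 107 CPM in the control and 267, 270 and 267 CPM with G1, and CSE1L, which recycles it, rose by 0.89 and RANBP1 by 1.07 on the log2 scale.

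Ribosome assembly and ribosomal proteins differed. Of 32 tested genes of ribosome biogenesis and RNA polymerase I, 25 rose and 1 fell, with a median of 0.40, NOP56 by 0.70, NCL by 0.59 and FBL by 0.44. Of 72 cytosolic ribosomal proteins, 14 rose and 6 fell with a median of 0.03, and with upper quartile scaling 4 rose and 16 fell, so this list has no direction of its own here. RPS26 had a log2 fold change of 0.47. Of 28 translation factors, 14 rose and 6 fell, with EIF2S1 up by 0.68, EIF4E by 0.62 and the helicase EIF4A2 lower at -0.68. EIF4EBP1, an inhibitor of EIF4E and a target of ATF4, fell from 36.4 ± 1.23 to 28.7 ± 0.587 CPM.

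The cytoskeleton lists rose. Of 14 tested tubulins and microtubule regulators, 12 rose and none fell, with a median of 0.61 and 6 rises of over 2-fold. TUBA4A read 44.0, 48.6 and 47.0 CPM in the control and 155, 143 and 163 CPM with G1, and TUBB4B rose from 152 ± 6.44 to 421 ± 15.3 CPM. Of 32 actin cytoskeleton genes and targets of the factor SRF, 23 rose and 2 fell. DIAPH3, a formin, rose from 14.3 ± 0.919 to 41.4 ± 2.08 CPM, ACTB from 1583 ± 71.0 to 2895 ± 162 CPM, and SRF itself by 0.44 on the log2 scale. Epithelial junction and keratin genes gave 21 of 34 higher and 5 lower, with KRT8 up by 0.58 and KRT18 by 0.41. CDH1, E-cadherin, rose by only 0.13 and lost its call with upper quartile scaling, while ESRP1, an epithelial splicing factor, fell by 0.44. Basement membrane, matrix and integrin genes had no common direction, 12 higher and 10 lower of 35. Within them LAMA5, a laminin chain, fell from 967 ± 110 to 440.0 ± 21.8 CPM and FN1 from 864 ± 12.7 to 615 ± 13.95 CPM, while THBS1 rose from 71.0 ± 2.004 to 148 ± 1.61 CPM. The mesenchymal list gave 5 higher and 4 lower of 17, with ID3 up by 0.72 and SMAD3 lower at -0.49.

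Secreted products of the airway epithelium fell. Of 20 tested mucins and defence proteins, 16 fell and 1 rose, with a median of -0.69 and 7 falls of over 2-fold. BPIFA1, an antimicrobial surface protein of the airway and the largest fall among genes named by size, read 11.7, 12.1 and 12.6 CPM in the control and 0.771, 1.11 and 1.03 CPM with G1. The log2 fold change was -3.64 ± 0.15 (SE, edgeR adjusted p = 5.4e-13). Its relative BPIFB1 fell from 188 ± 4.21 to 45.4 ± 1.38 CPM. The gel-forming mucin MUC5B read 411, 461 and 493 CPM against 127, 106 and 129 CPM, and the membrane mucin MUC16 fell from 2165 ± 127 to 661 ± 68.4 CPM. MUC1 fell by 1.10 and WFDC2 by 0.89 on the log2 scale. Of 21 lung lineage factors and surfactant genes, 9 fell and 4 rose with a median of 0.00. KLF4 fell from 29.5 ± 1.01 to 19.1 ± 0.429 CPM and HOPX from 2.83 ± 0.288 to 1.39 ± 0.214 CPM, while TFCP2L1 rose from 7.67 ± 0.570 to 17.0 ± 2.15 CPM. SFTPB, a surfactant protein, was near the floor, at 36 reads over the 3 control libraries and 6 over the 3 G1 libraries.

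Immune-type lists were mixed. Complement, coagulation and protease inhibitor genes gave 11 of 20 lower and 6 higher, with C3 lower at -0.45, CD55, which protects cells from complement, at -0.87, and F2RL1 higher at 0.67. The NF-kB and cytokine list gave 11 of 22 lower and 3 higher. LTB, lymphotoxin beta, read 2.80, 3.43 and 3.03 CPM in the control and 0.771, 1.32 and 0.706 CPM with G1, and TRAF1 fell by 1.40 on the log2 scale, while LIF rose by 0.49. CXCL8 was higher at 0.19, a call that was lost without control replicate 2 (0.14), control replicate 3 (0.16) or G1 replicate 2 (0.17), and with upper quartile scaling (0.103). Interferon and antigen presentation genes gave 9 of 28 lower, close to the share of all genes, and 4 higher, with HLA-B at -0.72 and STAT2 at -0.71, but ISG15, named after its value was seen, at 1.03. The sequence of HLA genes is shared between loci, so their counts may be split. Of 13 squamous and cornified envelope genes, 3 rose and 2 fell, the falls being TGM1 at -1.08 and KRT4 at -0.91.

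Signalling lists relevant to EGFR moved in parts. EGFR was lower by a log2 fold change of only -0.12 ± 0.05 (SE, edgeR adjusted p = 0.031), at 1040, 1090 and 1031 CPM against 986, 928 and 995 CPM, a call that was lost without control replicate 1 (-0.13), control replicate 2 (-0.09), G1 replicate 1 (-0.13) or G1 replicate 2 (-0.09). Of 16 ERBB receptors, ligands and inhibitors, 7 fell and 4 rose. HBEGF, an EGFR ligand, read 19.7, 21.5 and 18.7 CPM in the control and 6.16, 6.43 and 5.90 CPM with G1, and the ligand EGF fell from 26.1 ± 1.84 to 14.2 ± 1.505 CPM. ERBB2 and ERBB3 were lower at -0.39 and -0.37, and the inhibitor ERRFI1 higher at 0.33. NRG1, the ligand of ERBB3, was low but higher with G1, at 0.23, 0.41 and 0.30 CPM against 1.07, 1.26 and 1.09 CPM, and was named after its values were seen. Among 20 other receptor kinases and their partners, 6 rose and 4 fell, with FGFR1 at 5.79 ± 0.478 against 10.9 ± 0.723 CPM, MET higher at 0.31 and IGFBP3 lower at -1.05. Of 20 ERK output genes, 9 rose and 4 fell. The immediate early genes EGR1 and FOS fell by 0.98 and 0.91 on the log2 scale, FOSL1 rose by 0.87, SPRY4 rose by 0.27 and DUSP6 did not pass at 0.11, although it passed as higher without control replicate 2 (0.145) or G7 replicate 3 (0.108). Of the exon bases of DUSP6, 40.5% overlap AC024909.2 on the opposite strand.

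Cell death and growth control lists were mixed. Of 27 apoptosis genes, 9 rose and 7 fell, or 8 and 11 with upper quartile scaling. BAX rose from 43.3 ± 4.54 to 67.6 ± 3.46 CPM, HRK fell from 15.7 ± 1.27 to 8.13 ± 1.04 CPM and CFLAR, an inhibitor of death receptors, from 113 ± 6.41 to 72.5 ± 3.92 CPM. BCL2L11, which encodes BIM, and MCL1 did not pass, at -0.09 and 0.05, although BCL2L11 passed as lower without control replicate 2 (-0.14). BCL2, an inhibitor of apoptosis named after its value was seen, was higher at 0.98. Of 20 p53 targets, 6 rose and 6 fell, with CDKN1A at 0.53, TIGAR at 0.97 and BTG2 at -1.03. Of the exon bases of TIGAR, 42.6% overlap another gene model, AC008012.1, on the same strand. Of 18 YAP and TEAD genes, 7 rose and 2 fell, with YAP1 at 0.19 and AMOTL2 at -0.37, while CYR61 did not pass at 0.11. Of 30 Notch, Wnt and Hedgehog genes, 9 rose and 8 fell, with HES1 at -0.68 and AXIN2 at -0.79. AXIN2 shares 25.2% of its exon bases with AC004805.1 on the same strand.

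Clock genes gave 8 of 17 lower and 3 higher, with a median of -0.21. NR1D1 fell from 14.02 ± 0.899 to 9.14 ± 1.22 CPM and PER1 from 37.4 ± 2.49 to 28.5 ± 1.26 CPM, while ARNTL2 rose from 6.13 ± 0.441 to 12.4 ± 0.899 CPM. ABC transporters gave 9 of 20 higher and 7 lower. The sterol exporters ABCA1 and ABCG1 fell, ABCA1 from 219 ± 5.67 to 106 ± 3.05 CPM and ABCG1 from 30.8 ± 0.819 to 13.03 ± 0.844 CPM. ABCC4, which exports nucleotides and drugs, fell from 296 ± 8.41 to 179 ± 3.05 CPM, and ABCG2, a drug pump, rose from 61.3 ± 1.79 to 108 ± 2.098 CPM. Of 37 lysosome and autophagy genes, 12 fell and 8 rose, close to the background, with CTSC at 0.65 and GAA at -0.56.

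Lists of chromatin genes were mixed. Of 29 HP1 paralogs, H3K9 methylation genes and HP1 partners, 15 rose and 9 fell. LMNB1, lamin B1, read 56.7, 60.03 and 61.2 CPM in the control and 149, 149 and 144 CPM with G1, while LBR and LMNA rose by 0.67 and 0.71. UHRF1, which guides DNMT1 to newly copied DNA, rose from 25.2 ± 1.66 to 75.1 ± 2.34 CPM and DNMT1 from 137 ± 2.59 to 241 ± 3.55 CPM, in a DNA methylation list of 16 with 6 higher and 3 lower, or 6 and 6 with upper quartile scaling. Polycomb genes gave 7 of 25 higher and 10 lower, with EZH2 at 0.94 and CBX7 at -0.41. Of 27 histone deacetylases, acetyltransferases and bromodomain readers, 5 rose and 6 fell, all by less than 1.5-fold, or 3 and 13 with upper quartile scaling.

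Numbered zinc finger genes, many of which are repressors that recruit HP1 through TRIM28 and lie in clusters on chromosome 19, differed by position. Of 144 tested on chromosome 19, 48 were higher and 34 lower (37 and 44 with upper quartile scaling), and of 190 elsewhere 29 were higher and 65 lower (15 and 94). A pair of regions, chosen after the values were seen, held much of the rise. From chr19:19668796 to 24129961 (GRCh38), 9 of 10 tested zinc finger genes were higher and none lower, with a median of 0.56, and from chr19:52012765 to 53580269, 18 of 23 were higher and none lower, with a median of 0.40. Over the rest of the chromosome 21 of 111 were higher and 34 lower. With upper quartile scaling the calls in the regions were 8 higher and 1 lower, and 13 higher and none lower. ZNF813 in the second region rose from 39.1 ± 0.965 to 64.6 ± 0.901 CPM and ZNF347 from 22.5 ± 2.46 to 36.0 ± 2.83 CPM. In the first region ZNF681 read 0.151, 0.0687 and 0.119 CPM in the control and 2.02, 2.002 and 1.67 CPM with G1, from 5 reads over the 3 control libraries and 98 over the 3 G1 libraries. ZNF724 had 5 and 67 reads, and 44.8% of its exon bases overlap another gene model, AC092329.3. Near-identical copies in these clusters can share reads. Away from chromosome 19, ZNF292 fell by 0.82 and ZNF367 rose by 1.35 on the log2 scale.

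**Figure D4:**
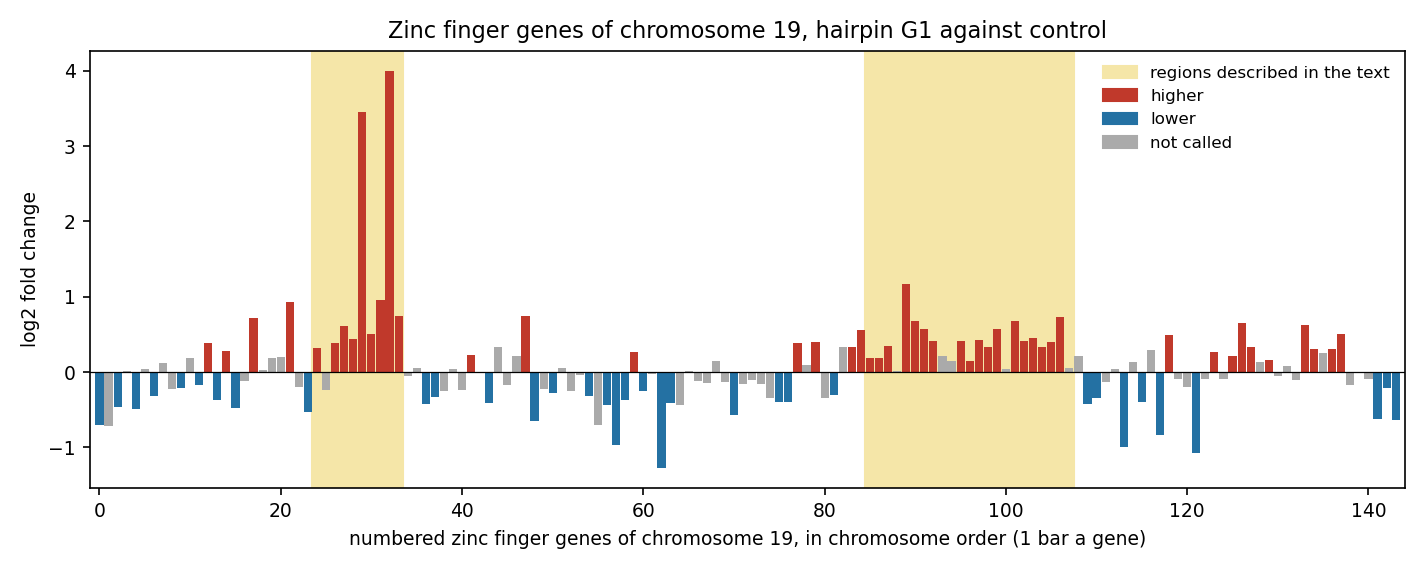
Log2 fold change of G1 against control for the 144 tested numbered zinc finger genes of chromosome 19 in chromosome order, 1 bar a gene, coloured by call, with the regions described in the text shaded. No gene in the shaded regions was called lower.

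Non-coding genes were called lower more often than protein-coding genes, except at the lowest levels. Of 539 tested lincRNAs (intergenic long non-coding RNAs), 224 were lower and 33 higher, with a median of -0.49. Antisense genes gave 143 of 354 lower and 15 higher with a median of -0.45, and pseudogenes 144 of 360 lower and 23 higher with a median of -0.39. Protein-coding genes gave 3169 of 11734 lower and 3944 higher with a median of 0.02. These classes are expressed at low levels, where protein-coding genes also leaned down, so the classes were set side by side at matched levels. The level was the mean CPM over all 9 libraries, which includes the libraries compared. Up to 1 CPM the shares were close, with 28.2% of 206 lincRNAs, 28.7% of antisense genes and 22.3% of pseudogenes lower, against 27.2% of protein-coding genes. The median log2 fold changes at that level were -0.55, -0.59 and -0.32, against -0.41. Between 1 and 3 CPM the shares were 40.1%, 42.3%, 38.4% and 32.8%. Between 3 and 10 CPM, 61.0% of lincRNAs, 56.4% of antisense genes and 55.3% of pseudogenes were lower, against 31.1% of protein-coding genes. Between 10 and 30 CPM the shares were 63.6%, 52.9%, 67.9% and 27.02%. Whether the counting used the strand is not given in the sources used here, so reads of an antisense gene and its partner cannot be told apart. Long genes leaned the same way among protein-coding genes averaging over 10 CPM across the 9 libraries. Of 267 spanning over 300 kb, 106 were lower and 61 higher, against 247 lower and 519 higher of 1190 spanning up to 10 kb. The part of RNA quality or of unspliced RNA in this was not tested.

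**Figure D5:**
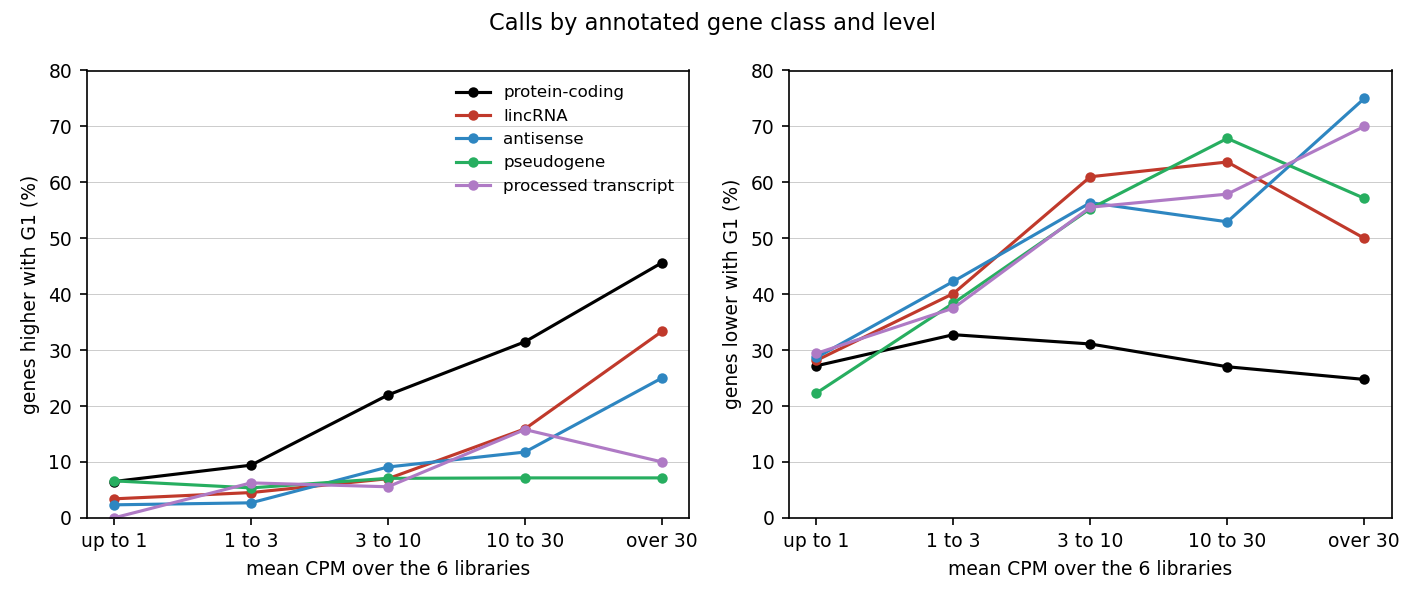
Percent of tested genes called higher (left) or lower (right) with G1 by annotated class and by mean CPM. The mean is over all 9 libraries, although the axis label names 6. From 3 to 10 CPM upward every non-coding class lies above protein-coding genes in the share lower, for example 61.0% of lincRNAs against 31.1% at 3 to 10 CPM.

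The largest single changes included genes outside every list. After TXNIP, the rises among genes averaging at least 2 CPM with libraries that did not overlap were led by MYH15, a myosin heavy chain, at 1.44, 1.37 and 1.79 CPM against 10.4, 10.3 and 10.7 CPM. NPTX1, a neuronal pentraxin, followed at 1.66, 1.17 and 1.79 CPM against 9.66, 7.90 and 9.63 CPM. The neuropeptide gene GAL rose from 1.48 ± 0.322 to 7.06 ± 0.396 CPM, NOG, which encodes the BMP antagonist noggin, from 1.64 ± 0.448 to 7.09 ± 0.957 CPM, and the transcription factor ARNT2 from 3.74 ± 0.613 to 14.2 ± 0.560 CPM. The size rule also picked sterol genes (INSIG1 at 2.099, SQLE at 1.69) and growth genes (MYBL2 at 1.86, GINS2 at 1.70). NID2, a basement membrane protein, rose from 1.87 ± 0.189 to 6.30 ± 0.625 CPM, with 29.96% of its exon bases overlapping RTRAF.

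After BPIFA1, the falls were led by CSF3R, the receptor of granulocyte colony-stimulating factor, at 3.85, 4.33 and 4.88 CPM against 0.237, 0.316 and 0.578 CPM. FAM30A, a lincRNA, read 30.3, 28.5 and 30.7 CPM against 3.91, 3.74 and 3.91 CPM, a log2 fold change of -2.95 ± 0.10 (SE, edgeR adjusted p = 3.3e-14). ADM2, a peptide hormone induced by ATF4, fell from 11.3 ± 0.756 to 1.92 ± 0.276 CPM, and PPP1R1B, the phosphatase inhibitor DARPP-32, from 4.39 ± 0.950 to 1.06 ± 0.249 CPM. The rest of the 15 largest falls included DMGDH, an enzyme of choline breakdown, at -2.04, KCP at -1.997 and MYO15B at -1.99. Only a few genes went from under 0.25 CPM in every library of one group to at least 1 CPM in every library of the other. With G1 these were ZNF681, ZNF724 and NOS3 upward (3 genes, 0.0226%) and DMBT1 and VIL1 downward (2 genes, 0.0151%). NOS3, the endothelial nitric oxide synthase, had 6 reads over the control libraries and 76 over the G1 libraries. DMBT1, a mucosal scavenger protein, had 78 and 6 reads, and VIL1, the microvillus protein villin, 75 and 8 reads, with 44.0% of its exon bases overlapping USP37.

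G1 and G7 were compared directly, since their comparisons with the control share the same 3 control libraries. G7 replicate 3 stood apart from the other G7 libraries. Its counts gave chi-square values, divided by their degrees of freedom, of 22.6 and 17.9 when set against theirs, while theirs gave 1.46. Pairs of control libraries gave 2.66 to 4.90 and pairs of G1 libraries 3.17 to 8.87. G7 replicate 3 also had 19.8% of its reads on mitochondrial genes. Without it, 5839 genes differed between the hairpins. Of 13264 genes, 5962 differed between the hairpins (44.9%), 3092 higher (23.3%) and 2870 lower (21.6%) with G1. The lists that moved most against the control also differed between the hairpins, but both comparisons use the same 3 G1 libraries and so are not independent. With G1 compared to G7, 21 of 26 genes of the amino acid list were lower and 2 higher. Of 15 stress regulators 13 were lower and none higher, and of 20 airway secreted genes 16 were lower and 1 higher. Of the 30 chaperones 27 were higher and of the 26 proteasome subunits 25 were higher, with none lower in either. The ER chaperones were less far apart, with 10 of 19 lower and 1 higher. HSPA5 differed by -1.05 ± 0.05 (SE) between the hairpins while HSP90B1 did not pass at -0.07. The NF-kB and cytokine list had 16 of 22 genes lower and 1 higher with G1 than with G7. Against the control, this list gave 11 lower and 3 higher with G1, but 7 higher and 0 lower with G7. BPIFA1 and FAM30A lay closer to the control with G7 than with G1. BPIFA1 averaged 12.1 CPM in the control, 9.04 CPM with G7 and 0.968 CPM with G1, and FAM30A averaged 29.8, 24.1 and 3.86 CPM.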

How the data were processed

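RNA of 9 HCC827 libraries was sequenced after poly-A selection with a strand-marking (dUTP) kit, per the labels' protocols. The authors deposited a table of raw read counts per gene. The submitters' processing notes name TopHat2 2.1.0, HTSeq 0.6.0 and the build GRCh38 (hg38), and the strand setting of the counting is not given in the sources used here. Counts were tested as deposited with edgeR 4.0.16 in R 4.3.3, by a quasi-likelihood fit over all 9 libraries (filterByExpr with a minimum count of 10, TMM scaling, 1 mean per group), with Benjamini-Hochberg adjustment over 13264 genes and a threshold of 0.05. CPM values are TMM-scaled, except the sums of cell type markers, which use plain library totals. SE is that of the log2 fold change, and SD is over 3 libraries. The script was tested on simulated counts. DESeq2 1.42.0, other scalings, filters and samples were alternatives. Gene positions and overlaps are from GENCODE 29 and promoters from RefSeq.

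Named genes were the 15 largest rises and falls among called genes averaging at least 2 CPM whose libraries did not overlap, the first 3 members of each list and up to 4 more with the smallest p, the HP1 genes, genes that went from under 0.25 CPM to at least 1 CPM, and the 5 largest differences from G7 each way. Genes outside this rule are named as such, as partners in an overlap, or because their promoter holds a motif. The members and lists were chosen with earlier results of these data known. A few genes that the rule picks are not reported here.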

Additional observations from a re-analysis of the deposited data

Results flagged for a closer look

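A few named genes were called in opposite directions with the 2 hairpins, although both comparisons used the same 3 control libraries, so G1 was tested directly against G7. ABCG1, the sterol exporter, averaged 30.8 CPM in the control, 13.03 CPM with G1 and 41.4 CPM with G7, and G1 differed from G7 by -1.66 on the log2 scale (edgeR adjusted p = 2.7e-11). LTB averaged 3.09, 0.931 and 4.36 CPM in the same order, a difference of -2.20. PI3, an elastase inhibitor of the airway, averaged 90.4, 59.9 and 156 CPM, a difference of -1.38. STARD4, a sterol carrier, averaged 4.10, 9.20 and 2.66 CPM, a difference of 1.80. Groups of 3 libraries were too small for a test of single outlying libraries.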

How the results depend on the processing

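CBX5 fell in every alternative run, by 1.35 to 1.47 on the log2 scale. The 7837 genes that passed became 1217 when a change beyond 1.5-fold was required, 6931 with DESeq2, 7206 with libraries thinned to the smallest and 7095 to 8260 when 1 library was left out. Deviations of control and G1 libraries from their group means correlated between -0.063 and 0.086. With means of only 3 libraries, such values cannot show whether libraries of equal number were made together. With the replicate block 7909 genes passed (4074 higher, 3835 lower) and no named gene changed its call. Upper quartile scaling kept the total at 7881 but moved the share of higher among called genes from 51.4% to 38.9%. Of 217 genes named with values, 209 were called, none of these reversed, and 3 lost the call under some alternative: EGFR and CXCL8 each when 1 library was left out (EGFR also with no filter on low counts, at -0.09), CXCL8 also with upper quartile scaling, at 0.103, and CDH1 with upper quartile scaling, at 0.05. Of genes that did not pass, MCL1 turned to -0.033 and SREBF1 to -0.069 with upper quartile scaling, SREBF1 lay between -0.010 and 0.066 when 1 library was left out, COL1A1 turned to -0.051 with upper quartile scaling and lay between -0.0039 and 0.125 when 1 library was left out, and SLC7A11 turned to 0.0050 with no filter on low counts and passed as lower at -0.11 with upper quartile scaling. The other 3 that gained a call were DUSP6 (also with no filter, at 0.133, and thinned, at 0.123), BCL2L11 (also with upper quartile scaling, at -0.173) and MT-ND6 with no filter, at 0.173. Of the counts of list members under an alternative, 1952 stayed within 1.5 times and 100 did not. With upper quartile scaling, lower calls went from 1 to 5 for mitochondrial ribosomal proteins, 5 to 8 for junction genes, 2 to 4 for both nuclear transport and actin genes and 8 to 12 for Notch, Wnt and Hedgehog genes, and higher calls from 7 to 4 for YAP genes, 5 to 2 for the secretory route, 6 to 3 for complement, and 3 to 1 for both NF-kB and cornified genes. The smallest control library held 12701561 reads, and genes at a few reads per library rest on counting error that this depth leaves large.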
